A study of Mus musculus with 9 samples.

Results

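The genes that flank Trex1 on mouse chromosome 9 were examined in kidney RNA. They were taken by position and level alone, as genes whose GRCm38 start lies within 10 Mb on either side of the Trex1 start and whose mean over all libraries reached 1 CPM (the count scaled by the raw library total). Of the 533 genes that start in this interval, 180 reached 1 CPM and 353 did not. Trex1, its neighbours Atrip and Shisa5, and several ribosomal, solute carrier and respiratory chain families were left out by name, which removed 7 of the 180 genes (Atrip, Ndufaf3, Rpl29, Rps27rt, Shisa5, Slco2a1 and Uqcrc1). The 173 remaining genes are 173 of the 54532 gene identifiers in the count files and of the 14844 genes with a mean of at least 1 CPM. Of these, 162 are protein-coding, 118 start below the Trex1 start and 55 start above it. All 173 passed the filter on low counts and were tested.

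Kidneys of 3 groups were compared by polyA RNA-seq, with 3 libraries per group. One group was wild type, and the other 2 were Trex1-/- mice that received either PBS or the STING antagonist SN-011 over 2 weeks. The labels give C57BL/6J for every sample. By the study's methods, Trex1-/- mice were 1 month old at the start, came from intercrosses of Trex1+/- mice of a line from another laboratory and were injected each day with SN-011 at 10 mg/kg or with PBS that held 1% Tween 80, and wild-type mice of 4 to 8 weeks were purchased. The engineered Trex1 allele and the chromosome segment inherited with it go with the Trex1-/- label, so loss of Trex1 and the origin of the flanking segment cannot be told apart here. Whether wild-type mice were injected is not stated, so daily injection may go with that label as well.

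TREX1 is an exonuclease that degrades DNA in the cytosol. Without it, such DNA activates the sensor cGAS, which signals through STING to induce type I interferon and inflammatory genes. In a mouse line with an engineered allele, neighbouring genes travel with that allele through breeding, and the closer a gene lies, the less often recombination separates it from the allele. This is why changes around a targeted locus are commonly read by their distance from it.

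The libraries held 16118813 to 21928965 counts. No library, of either genotype, had a count for Trex1 itself (0 over all 9), so the genotype rests on the labels. By counting error alone this 0 allows up to 0.137 to 0.186 CPM. Atrip has the same annotated start, and how reads that fit both genes were counted is not given. The 0 is therefore not read as a level of Trex1 RNA. The kidney markers Slc34a1, Lrp2, Umod, Slc12a1, Slc12a3, Aqp2 and Nphs1 were present in every library and summed to 15348 to 19234 CPM. The sum of 4 Y-linked genes, which only males carry, was 153 to 188 CPM in wild-type replicate 3, all PBS libraries and SN-011 replicate 2, and at most 0.377 CPM in the other 4 libraries. Libraries above 10 CPM are described as having Y-linked reads. The labels give no sex, but by these reads the groups differed in it, with males in 1 of 3 wild-type, 3 of 3 PBS and 1 of 3 SN-011 libraries. SN-011 replicate 2 also stood apart from the other SN-011 libraries, with differences of 67.3 and 76.6 times the counting variance and wild-type replicate 3 from the other wild-type libraries, with 31.7 and 31.9, where the other replicate pairs had 7.80 to 15.6. Summed leukocyte markers (Ptprc, Cd3e, Cd79a and Adgre1) were 16.8 to 21.6 CPM in the wild-type libraries, whereas PBS libraries held 32.3 to 38.1 CPM and SN-011 libraries 17.2 to 31.1 CPM. Red cell markers ran from 527 to 1660, 300 to 616 and 96.3 to 229 CPM, fat markers from 114 to 247, 82.1 to 140 and 91.8 to 117 CPM, and neutrophil markers from 0.638 to 3.96, 2.62 to 7.17 and 3.71 to 9.06 CPM in the same order. In bulk kidney, fewer cells of a type and less RNA per cell cannot be told apart, and since the labels do not say that libraries came from separate animals, the p-values measure the spread between these libraries.

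The comparison of Trex1-/- mice given PBS with wild type asked which of these genes differ when TREX1 is missing. Among the 173 genes, 2 rose (Slc38a3 and Uba7) and 4 fell (Mapkapk3, Cish, 6430571L13Rik and 3000002C10Rik) at an edgeR adjusted p under 0.05. Over all 16646 genes tested, 1.88% were called. Rising genes were 1.44% and falling genes 0.439% of all genes tested. In SN-011-treated mice against wild type, Slc38a3 rose and 3000002C10Rik fell, against 1.28% called over all genes, 0.823% higher and 0.457% lower. With both Trex1-/- groups averaged and set against wild type, 7 of the 173 genes were called, of which 2 rose (Rad54l2 and Slc38a3) and 5 fell (Mapkapk3, Cish, 6430571L13Rik, 3000002C10Rik and Als2cl), where 2.43% of all genes were called, 1.48% higher and 0.955% lower. These 3 comparisons share the wild-type libraries and name 8 different genes between them. With a term for Y-linked reads in the fit, 4 genes were called with PBS, 9 with SN-011 and 11 in the average, where 1.19%, 3.94% and 2.68% of all genes were called. With PBS those were Slc38a3 and Mapkapk3 of the 6 above and in addition Alas1 (log2 fold change -0.94, adjusted p 0.0116) and Manf (-0.74, adjusted p 0.0280). With SN-011 they were both genes above, Rad54l2, Cish, 6430571L13Rik, Acad11, Glyctk, Ppm1m and Mon1a, and in the average the 7 above, Acad11, Glyctk, Ppm1m and Alas1. The other PBS calls were lost with this term (edgeR adjusted p 0.0910 to 0.202). Their log2 fold changes with PBS were then 0.91 for Uba7, -1.03 for 3000002C10Rik, -1.19 for 6430571L13Rik and -0.81 for Cish.

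As a whole, the interval was centred near 0. The median log2 fold change of the 173 genes was -0.0082 with PBS and -0.04 with SN-011 against wild type, and over all genes tested these medians were 0.003 and -0.003. In the average of both groups it was -0.02, and 5 of the 173 genes (2.89%) reached a fold change of 2 in either direction, compared with 4.20% of all genes tested. With a mean of at least 1 CPM, as in the interval, the share was 3.08% on other chromosomes and 2.02% on the rest of chromosome 9. Trex1-/- groups that did not overlap with wild type were more frequent among the 173 genes than over all genes, a difference that was not tested. With PBS, 61 genes (35.3%) had no overlap with wild type, where the share over all genes was 25.4%. With SN-011 the number was 49 (28.3%), beside 21.7% of all genes. For 29 genes (16.8%) all 6 Trex1-/- libraries lay outside the wild-type range, beside 9.13% of all genes tested, 9.15% of the 645 other chromosome 9 genes and 9.39% of genes on other chromosomes.

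**Figure D1:**
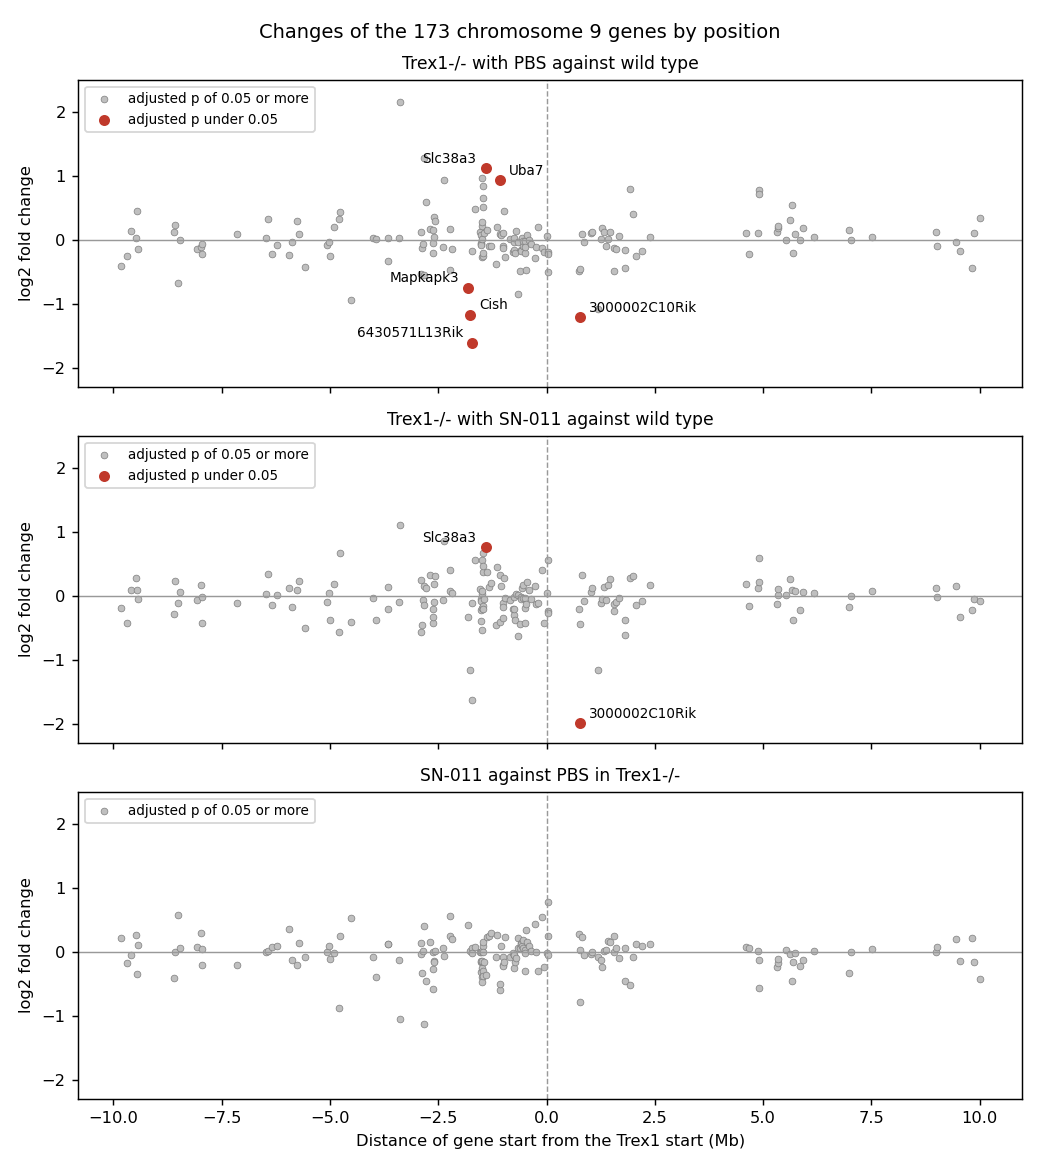
Log2 fold change of each of the 173 genes (vertical axis) against the distance of its start from the Trex1 start in Mb (horizontal axis), with 1 panel per comparison, grey points for genes with an adjusted p of 0.05 or more and red points for genes called by edgeR. Red points lie between -1.80 and 0.77 Mb in the PBS panel, at -1.41 and 0.77 Mb in the SN-011 panel and nowhere in the panel of SN-011 against PBS.

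By position, the 8 genes lay from -2.37 Mb (Rad54l2) to 1.82 Mb (Als2cl), 6 below and 2 above the Trex1 start. In bins of 2 Mb, the average of both Trex1-/- groups gave 1 call among 24 genes from -4 to -2 Mb, 4 among 62 from -2 to 0 Mb and 2 among 26 from 0 to 2 Mb. The other 7 bins held 61 genes and 0 calls, with 0 calls also in PBS and in SN-011 against wild type. With 2.43%, 1.88% and 1.28% of all genes called in these comparisons, 0 of 61 is near the share over all genes. The limit of 4 Mb was set after these positions were seen, and no test was run on it. Within 4 Mb, 23 of 115 genes (20%) had all 6 Trex1-/- libraries outside the wild-type range, with 15 lower and 8 higher (4.37% and 4.76% of all genes tested). From 4 to 10 Mb this held for 6 of 58 genes (10.3%), with 2 lower and 4 higher. Genes beyond 4 Mb were called against wild type in some alternatives (Cpne4, Acad11, Acpp, Mras and Vill). Cmtm6 and Vill were called in SN-011 against PBS without SN-011 replicate 2.

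**Figure D2:**
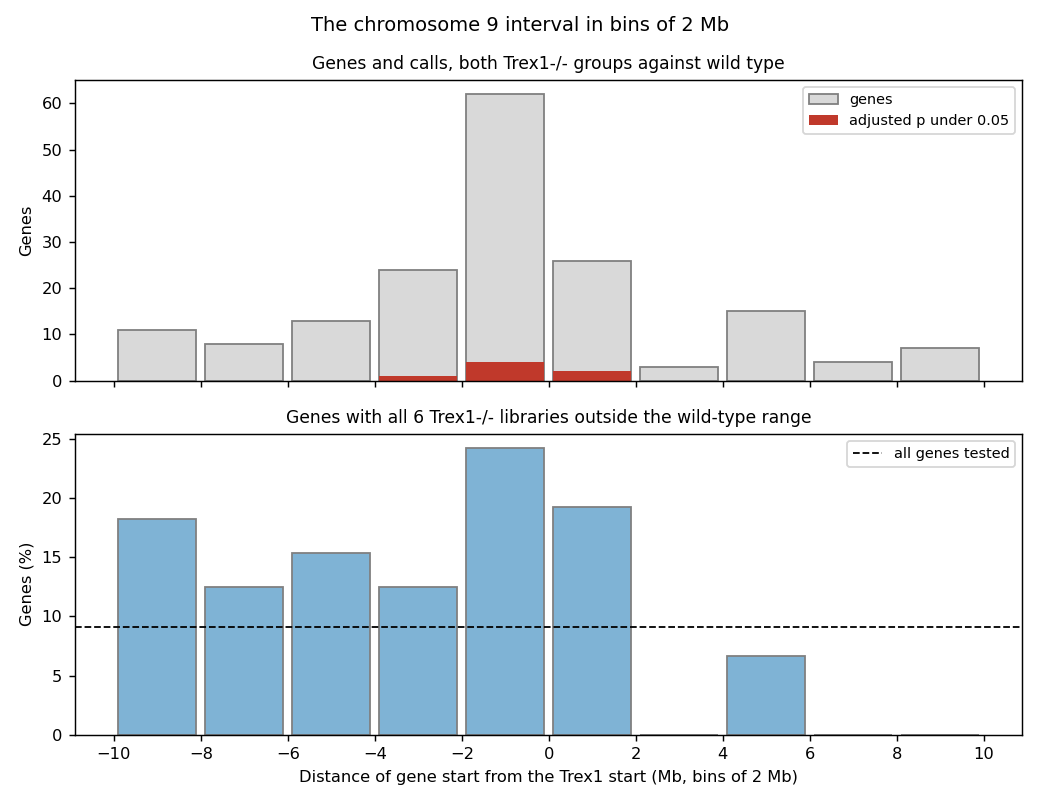
Upper panel, number of genes (grey bars) and of genes called by edgeR with both Trex1-/- groups averaged against wild type (red bars) in bins of 2 Mb of distance from the Trex1 start. Lower panel, percentage of the genes in each bin with all 6 Trex1-/- libraries outside the wild-type range, with the share over all genes tested (9.13%) as a dashed line. The highest share, 24.2%, is in the bin from -2 to 0 Mb, which holds 62 of the 173 genes.

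The share of genes called on chromosome 9 was within the range of the other chromosomes. With both Trex1-/- groups averaged, 2.78% of the 826 chromosome 9 genes with at least 1 CPM were called, and on the other 19 chromosomes the share ran from 0.448% on X to 3.83% on 17.

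The called genes are described by their roles, beginning with transport. Slc38a3 (ENSMUSG00000010064; GRCm38 chromosome 9, 107650634 to 107669530, minus strand), which encodes the glutamine transporter SNAT3 of the proximal tubule, lay at -1.41 Mb. Its level was 59.0, 70.3 and 62.7 CPM (scaled by TMM, as are all levels that follow) in wild-type replicates 1, 2 and 3, 158, 134 and 123 CPM with PBS and 98.8, 116 and 109 CPM with SN-011. Every Trex1-/- library lay above every wild-type library. Mean levels were 64.0 ± 5.78, 139 ± 17.8 and 108 ± 8.87 CPM (SD, n = 3 each). The log2 fold change was 1.11 with PBS (SE 0.116, edgeR adjusted p 0.000658) and 0.76 with SN-011 (SE 0.115, adjusted p 0.0168). The PBS call held in all 19 alternative fits, with an adjusted p of 0.00819 at most. The SN-011 call was lost only without wild-type replicate 1 (adjusted p 0.0826), and over its 19 alternatives the adjusted p ran from 2.07e-06 to that value. Its neighbours on either side, Gnai2 (a G protein subunit) and Sema3f (a guidance ligand), had log2 fold changes of 0.02 and 0.26 in the average of both groups and were not called.

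Of 26 genes of the interval on a list of kidney transport and metabolism genes (30 listed), Slc38a3 was the one gene called, higher in each comparison with wild type, and 0 fell. Over all genes 1.28% to 2.43% were called in these comparisons, and 1 of 26 is near that share. The median log2 fold change of these 26 genes was -0.05 with PBS and -0.06 with SN-011. The most abundant of them per kb of exon were Gpx1 (glutathione peroxidase, removing peroxides), Pth1r (the parathyroid hormone receptor) and Pccb (a propionyl-CoA carboxylase subunit). Gpx1 had 1707 ± 179, 1475 ± 208 and 1318 ± 343 CPM in wild type, PBS and SN-011 (SD, n = 3), and its edgeR adjusted p was 0.359 in the average of both groups. Pth1r and Pccb had log2 fold changes of 0.008 and -0.10 there, with adjusted p of 0.982 and 0.498.

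The called gene farthest from Trex1 was Rad54l2 (ENSMUSG00000040661; chromosome 9, 106688082 to 106789194, minus strand; -2.37 Mb), a helicase of the SNF2 family that binds the androgen receptor. It was at 40.0, 36.7 and 37.3 CPM in wild type, 74.5, 82.0 and 61.0 CPM with PBS and 62.8, 95.2 and 49.3 CPM with SN-011. All Trex1-/- libraries were above the wild-type range, with a wide spread under SN-011 whose highest library was replicate 2. In the average of both groups it rose 1.86-fold (log2 0.90, SE 0.184, adjusted p 0.0346). The separate values were 0.93 with PBS (adjusted p 0.0528) and 0.86 with SN-011 (adjusted p 0.0782), which ran from 0.55 (without SN-011 replicate 2) to 1.06 (without SN-011 replicate 3) with 1 library left out. The averaged call was lost without wild-type replicate 1 (0.127), 2 (0.161) or 3 (0.0864) and without PBS replicate 1 (0.0811) or 2 (0.0848), and its 18 alternatives ran from 0.000114 to 0.161. The PBS value passed in 8 of 19 alternatives, among them those without SN-011 replicate 2 (0.00263) and without SN-011 replicate 3 (0.0197), and ran up to 0.248. The SN-011 value passed in 5 of 19, among them the Y-linked term (0.0292) and that without SN-011 replicate 3 (0.0271), and ran up to 0.226.

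Of the 13 genes on a list of DNA damage and repair genes, 7 were in the interval above 1 CPM. In the average of both groups Rad54l2 rose and 6 were not called, where 2.43% of all genes were called, and with PBS or SN-011 alone 0 of the 7 were called. Among those 6, Parp3 (an ADP-ribosyltransferase) had 24.8 ± 3.64, 31.5 ± 1.16 and 28.2 ± 12.4 CPM in wild type, PBS and SN-011 (SD, n = 3), and Setd2 (the histone H3 lysine methyltransferase of transcribed genes) had 55.3 ± 4.47, 59.9 ± 4.65 and 66.2 ± 5.71 CPM. Their edgeR adjusted p were 0.538 and 0.287.

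**Figure D3:**
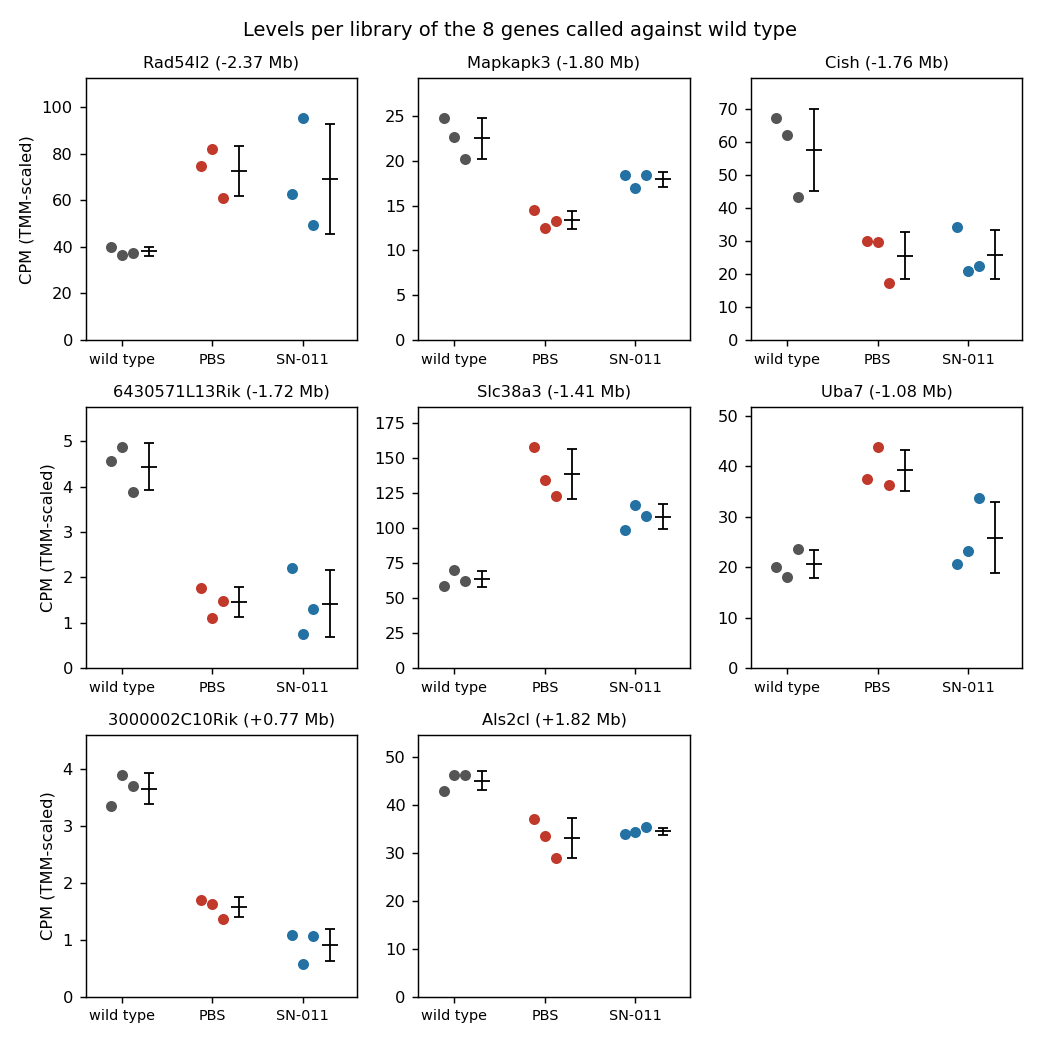
Level in each library (CPM scaled by TMM, vertical axes from 0) of the 8 genes called against wild type, for wild type (grey), Trex1-/- with PBS (red) and Trex1-/- with SN-011 (blue), with the mean and SD of each group (n = 3) in black beside the points. For 7 of the 8 genes all 6 Trex1-/- points lie on 1 side of the wild-type points, and for Uba7 the SN-011 points overlap them.

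Close together lay 3 genes that fell, Mapkapk3, Cish and 6430571L13Rik. Their starts at -1.80, -1.76 and -1.72 Mb were 41.1 and 44.6 kb apart, and Hemk1, which lies between Cish and 6430571L13Rik, was not called (log2 fold change -0.15, adjusted p 0.400). Mapkapk3 (ENSMUSG00000032577; chromosome 9, 107254927 to 107289877, minus strand) encodes a kinase that is activated by p38 MAP kinase. It was at 24.8, 22.7 and 20.2 CPM in wild type, 14.5, 12.5 and 13.2 CPM with PBS and 18.5, 17.0 and 18.4 CPM with SN-011. The 3 groups did not overlap, with the SN-011 libraries between the other 2 groups. The log2 fold change was -0.75 with PBS (SE 0.109, adjusted p 0.00559), a call held in all 19 alternatives (adjusted p 0.0420 at most), and -0.33 with SN-011 (SE 0.108, adjusted p 0.158). In the average of both groups it was -0.54 (adjusted p 0.0136), which was lost without wild-type replicate 1 (0.0966) or 2 (0.0821), among 18 alternatives from 0.000219 to 0.0966. SN-011 against PBS gave 0.42 (SE 0.110, adjusted p 0.246).

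Cish (ENSMUSG00000032578; chromosome 9, 107296026 to 107302784, plus strand) encodes a SOCS family protein that STAT5 induces and that restrains cytokine signalling. Its level was 67.2, 62.1 and 43.4 CPM in wild type, 29.8, 29.6 and 17.3 CPM with PBS and 34.3, 20.8 and 22.3 CPM with SN-011. Every Trex1-/- library was below the wild-type range, and both Trex1-/- groups had near means (25.6 ± 7.18 and 25.8 ± 7.40 CPM, SD, n = 3). The log2 fold change was -1.17 with PBS (SE 0.254, adjusted p 0.0484), -1.16 with SN-011 (SE 0.254, adjusted p 0.0604) and -1.17 in the average (adjusted p 0.0181). The averaged call was lost without wild-type replicate 1 (0.108) or 2 (0.101), among 18 alternatives from 7.51e-06. The PBS call was lost in 8 of 19 alternatives, which were the omission of PBS replicate 1 (0.107), 2 (0.115) or 3 (0.128), SN-011 replicate 3 (0.0573) or wild-type replicate 1 (0.179) or 2 (0.173), the Y-linked term (0.202, the highest) and the mean of at least 50 counts (0.0564). The SN-011 value passed in 7 of 19 alternatives, among them the Y-linked term (0.0141) and those without SN-011 replicate 1 (0.0322) and without wild-type replicate 3 (0.0375), and ran up to 0.183. Cish shared 11.5% of its exonic bases with a gene on the opposite strand.

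The third, 6430571L13Rik (ENSMUSG00000037977; chromosome 9, 107340602 to 107352422, plus strand), is a protein-coding gene known by its clone name. Its level was low, at 4.57, 4.88 and 3.88 CPM in wild type, 1.77, 1.11 and 1.49 CPM with PBS and 2.21, 0.753 and 1.31 CPM with SN-011, from 13 to 108 counts per library. The Trex1-/- libraries were all below the wild-type range. It fell by 1.61 on the log2 scale with PBS (SE 0.342, adjusted p 0.0436) and by 1.62 in the average of both groups (SE 0.279, adjusted p 0.0140), and the SN-011 value was -1.64 (SE 0.341, adjusted p 0.0513). The averaged call was lost without wild-type replicate 1 (0.0738) or 2 (0.0846), among 17 alternatives from 1.46e-06. The PBS call was lost in 7 of 18 alternatives, namely without PBS replicate 1 (0.118), 2 (0.211, the highest) or 3 (0.129), SN-011 replicate 3 (0.0570) or wild-type replicate 1 (0.146) or 2 (0.165), and with the Y-linked term (0.194). With SN-011 the value passed in 7 of 18 alternatives, among them the Y-linked term (0.0138) and that without SN-011 replicate 1 (0.0165), and ran up to 0.172. The gene shared 10.7% of its exonic bases with a gene on the opposite strand.

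Uba7 (ENSMUSG00000032596; chromosome 9, 107975505 to 107984060, plus strand; -1.08 Mb) encodes the activating enzyme that loads the interferon-induced modifier ISG15. It is the only gene of the interval among the 159 genes of M7core, the cGAS-induced gene list that the study defined in fibroblasts. Its level was 20.1, 18.1 and 23.5 CPM in wild type, 37.5, 43.8 and 36.3 CPM with PBS and 20.6, 23.1 and 33.8 CPM with SN-011. The PBS libraries were above all others, and the SN-011 libraries overlapped the wild type. It rose 1.91-fold with PBS (log2 0.93, SE 0.179, adjusted p 0.0265), and its log2 fold change was 0.33 with SN-011 (SE 0.179, adjusted p 0.368), 0.63 in the average of both groups (adjusted p 0.0738) and -0.60 for SN-011 against PBS (SE 0.178, adjusted p 0.279). With 1 library left out the SN-011 value ran from 0.089 (without SN-011 replicate 3) to 0.47 (without SN-011 replicate 1). The PBS call was lost without PBS replicate 1 (0.0848), 2 (0.131) or 3 (0.0694), without wild-type replicate 1 (0.120) or 2 (0.137, the highest) and with the Y-linked term (0.0910, at a log2 fold change of 0.91). The lowest adjusted p over its 19 alternatives was 9.83e-05, from DESeq2. The averaged value passed in 3 of 18 alternatives, among them that without SN-011 replicate 1 (0.0362), and ran from 0.00630 to 0.289. Of its exonic bases, 3.48% were shared with a gene on the same strand. Summed leukocyte markers were also highest with PBS (32.3 to 38.1 CPM), and their part in its level was not tested.

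Of 16 listed interferon or innate immune genes, 11 were in the interval above 1 CPM. With PBS against wild type Uba7 rose, Cish fell and 9 were not called, where 1.88% of all genes were called. With SN-011 0 were called, and in the average Cish fell and 10 were not called. Their median log2 fold change was 0.10 with PBS and 0.06 with SN-011. Gnai2, Nbeal2 (needed for granules of platelets and leukocytes) and Dhx30 (an RNA helicase) were the most abundant per kb, and with PBS they had log2 fold changes of 0.10, -0.13 and 0.10 with edgeR adjusted p of 0.691, 0.701 and 0.621. The 3 listed neutrophil granule genes, Ltf, Camp and Ngp, were below 1 CPM. Of 11 genes in the interval on a ubiquitin list, Uba7 was called with PBS and 10 were not, and 0 were called with SN-011 or in the average. The list also holds Tusc2, a mitochondrial protein gene that is not a ubiquitin enzyme. The most abundant, Usp19 (a deubiquitinase), Tusc2 and Anapc13 (a subunit of the anaphase-promoting complex), had log2 fold changes of 0.03, 0.003 and 0.33. Of 16 genes on a list of mainly chromatin, transcription and RNA processing genes 0 were called with PBS, with SN-011 or in the average, where 1.88%, 1.28% and 2.43% of all genes were called. It also holds genes of other roles, such as Ptpn23 (a phosphatase of endosomal sorting) and Kif9 (a kinesin). Its most abundant genes, Pcbp4 (an RNA-binding protein), Ptpn23 and Ccdc12, had averaged log2 fold changes of -0.03, 0.13 and -0.12.

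Above Trex1, 3000002C10Rik (ENSMUSG00000070282; chromosome 9, 109827943 to 109832706, minus strand; 0.77 Mb) is annotated as a transcribed processed pseudogene, so reads that fit its parent gene equally well were not counted and its level is uncertain. It was at 3.35, 3.88 and 3.70 CPM in wild type, 1.71, 1.63 and 1.37 CPM with PBS and 1.08, 0.580 and 1.07 CPM with SN-011, from 10 to 86 counts per library. The 3 groups did not overlap. The log2 fold change was -1.21 with PBS (SE 0.255, adjusted p 0.0417), -1.996 with SN-011 (SE 0.269, adjusted p 0.00908) and -1.60 in the average of both groups (SE 0.214, adjusted p 0.00350), a call that held in all 17 alternatives (adjusted p 0.0295 at most). The PBS call was lost in 9 of 18 alternatives, which were the omission of PBS replicate 1 (0.144), 2 (0.171) or 3 (0.130), SN-011 replicate 3 (0.0502) or wild-type replicate 1 (0.114), 2 (0.168) or 3 (0.0695), the replicate block (0.0761) and the Y-linked term (0.191, the highest). The SN-011 call was lost in 1 of 18 alternatives, the fit of only the libraries of that comparison (0.0508). SN-011 against PBS gave -0.78 (SE 0.284, adjusted p 0.342).

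Als2cl (ENSMUSG00000044037; chromosome 9, 110879870 to 110900530, plus strand; 1.82 Mb) was at 42.9, 46.2 and 46.2 CPM in wild type, 37.0, 33.5 and 28.8 CPM with PBS and 33.8, 34.3 and 35.3 CPM with SN-011. Both Trex1-/- groups lay below the wild-type range. It fell 1.33-fold in the average of both groups (log2 -0.41, SE 0.0842, adjusted p 0.0333), with -0.44 for PBS (adjusted p 0.0555) and -0.39 for SN-011 (adjusted p 0.0888). The averaged call was lost in 6 of 18 alternatives, namely without wild-type replicate 1 (0.0955), 2 (0.160, the highest) or 3 (0.0838), PBS replicate 2 (0.0848) or SN-011 replicate 1 (0.0504), and with the replicate block (0.0563). The PBS value passed in 7 of 19 alternatives, among them that without SN-011 replicate 2 (0.0365), and ran from 0.00698 to 0.207. Als2cl shared 15.5% of its exonic bases with a gene on the opposite strand.

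The 300 bases around the annotated starts were read from RefSeq (GRCm38.p6; 250 before and 50 after the start) for the 5 called genes of the 8 that matched, and the 3 windows of 7 that hold a match are shown. The other 4 (a second one of Mapkapk3, 1 of 6430571L13Rik and 2 of Als2cl) hold none of the motifs. The motifs were chosen after these sequences were seen. TTCNNNGAA, the element of STAT factors, was searched because Cish is a known STAT5 target, and the interferon-stimulated response element (GAAA and GAAA with any 2 bases between them) and its shorter form AAANNGAAA, which lies within it, because Uba7 is interferon-induced. Both strands were searched, and capitals mark the matches. The windows are chr9:107296409-107296708 (plus strand) for Cish, chr9:107975317-107975616 (plus strand) for Uba7 and chr9:107289347-107289646 (minus strand), 1 of 2 annotated, for Mapkapk3, each given 5′ to 3′ along the gene.
Cish: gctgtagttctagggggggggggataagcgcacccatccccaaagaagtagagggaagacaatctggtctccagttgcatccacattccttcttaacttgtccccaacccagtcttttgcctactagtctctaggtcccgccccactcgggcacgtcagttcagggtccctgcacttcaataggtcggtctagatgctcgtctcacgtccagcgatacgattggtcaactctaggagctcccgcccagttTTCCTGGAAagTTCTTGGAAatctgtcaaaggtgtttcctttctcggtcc
Uba7: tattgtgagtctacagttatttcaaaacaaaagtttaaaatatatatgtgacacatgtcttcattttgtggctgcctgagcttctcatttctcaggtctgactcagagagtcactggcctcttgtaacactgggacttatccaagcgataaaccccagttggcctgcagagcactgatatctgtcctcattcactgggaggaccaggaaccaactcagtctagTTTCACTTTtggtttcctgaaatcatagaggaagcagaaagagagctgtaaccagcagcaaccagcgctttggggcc
Mapkapk3: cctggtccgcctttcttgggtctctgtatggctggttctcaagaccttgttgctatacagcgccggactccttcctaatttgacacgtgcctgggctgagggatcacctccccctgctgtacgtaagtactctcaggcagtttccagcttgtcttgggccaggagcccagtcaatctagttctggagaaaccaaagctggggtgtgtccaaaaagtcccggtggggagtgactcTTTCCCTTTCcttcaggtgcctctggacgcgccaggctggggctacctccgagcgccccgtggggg

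The Cish window held TTCNNNGAA at positions 251 and 262, counted from 1 at its first base. It was the only window with 2 matches among the 181 windows of the 146 genes that matched, and 0.457% of all 32851 promoter windows held 2 or more. At least 1 match was found in 8.29% of the interval's windows and 8.30% of all windows. In the Uba7 window the shorter interferon form stood once, at position 224, and was found in 10.6% of all windows and 7.18% of the interval's windows, and the full element was not among these letters. The Mapkapk3 window held the full element once, at position 235, which 3.44% of all windows and 2.21% of the interval's windows held. A match in these windows is a description of the letters only.

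Nearest to the Trex1 start lay Slc26a6 (an anion exchanger), Col7a1 (type VII collagen) and Pfkfb4 (a regulator of glycolysis) below it, and Tma7, Ccdc51 and the antisense gene Gm7628 above it, from -0.20 to 0.04 Mb. None of these 6 was called in any of the comparisons. Plxnb1 (a semaphorin receptor), next above them at 0.04 Mb and named for its values, had a log2 fold change of -0.50 with PBS (adjusted p 0.0979) and was called there in 5 alternatives (adjusted p 0.0189 to 0.0469). Slc26a6 was at 10.8 ± 1.53, 12.4 ± 1.61 and 10.02 ± 1.15 CPM in wild type, PBS and SN-011, Pfkfb4 at 10.6 ± 1.48, 9.26 ± 1.27 and 7.86 ± 2.74 CPM, and Tma7 at 54.0 ± 1.88, 56.2 ± 8.74 and 55.2 ± 3.06 CPM (SD, n = 3 each). Their log2 fold changes in the average of both groups were 0.04, -0.31 and 0.05, with edgeR adjusted p of 0.902, 0.462 and 0.842. Col7a1, Ccdc51 and Gm7628 had 0.14, -0.21 and 0.17, with adjusted p of 0.826, 0.488 and 0.849. The 13 genes directly next to a called gene that were not called themselves had averaged log2 fold changes from -0.45 (Nme6) to 0.54, with a smallest adjusted p of 0.102.

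Levels outside the called genes could be large without passing the test. Col6a6, a collagen VI chain at -3.37 Mb that was picked once its values were known, had the largest log2 fold change with PBS of the 173 genes, 2.15 (adjusted p 0.508). It was at 1.89, 0.677 and 24.3 CPM in wild type, 29.8, 48.9 and 37.7 CPM with PBS and 0.907, 54.9 and 0.534 CPM with SN-011. The 5 libraries with Y-linked reads had 24.3 to 54.9 CPM and the 4 without them 0.534 to 1.89 CPM. Among the 5, the wild-type library was the lowest. For the 8 called genes the Y-linked reads were also set beside the levels. Within libraries with such reads and within those without, 7 of them kept the direction of the averaged change in both Trex1-/- groups, whereas Uba7 in SN-011 replicate 2 (23.1 CPM) was not above wild-type replicate 3 (23.5 CPM). No PBS library lacked Y-linked reads, so PBS could be compared only with wild-type replicate 3 there.

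SN-011 was compared with PBS in Trex1-/- mice to see which of these genes differ under STING antagonism. All 3 PBS libraries and 1 of the 3 SN-011 libraries had Y-linked reads, so the groups also differed in sex. At an edgeR adjusted p under 0.05, 0 of the 173 genes and 0 of all 16646 genes were called (0.0%). At an unadjusted p under 0.05 there were 17 of the 173 genes and 1905 of all genes (11.4%), and the DESeq2 Wald test and edgeR's exact test called 183 and 127 of all genes and 0 of the 173. The groups did not overlap for 28 genes (16.2%), beside 16.1% of all genes tested. Without SN-011 replicate 2, 6 genes were called and all were lower with SN-011, Naa80 (log2 fold change -0.78, adjusted p 0.00776), Vill (-1.04, adjusted p 0.00741), Cmtm6 (-0.995, adjusted p 0.0137), Abhd14b (-0.49, adjusted p 0.0272), Parp3 (-0.59, adjusted p 0.0357) and Acy1 (-0.93, adjusted p 0.0442), where 3.05% of all genes were called. None of the 8 genes called against wild type was among them. SN-011 replicate 2 was the only SN-011 library with Y-linked reads. That fit therefore set SN-011 libraries without such reads against PBS libraries that all had them, and treatment and sex cannot be told apart in it. In the fit of all 9 libraries, the smallest adjusted p among the 8 genes was that of Mapkapk3 given above.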

How the data were processed

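RNA of 9 mouse kidney libraries was sequenced by the authors (polyA selection, strand-specific kit), trimmed with Trimmomatic, aligned with HISAT2 at default settings to mm10 per the labels and counted with featureCounts from uniquely mapped pairs. The deposited values are raw counts per Ensembl gene, with no normalization and no pooling. Versions, annotation and strand setting of counting are not given in the sources used here. Of 54532 identifiers, 54495 matched GENCODE vM21 (GRCm38), which gave symbols and positions.

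The main test was the quasi-likelihood F test of edgeR 4.0.16 (R 4.3.3) on counts of all 9 libraries, fitted jointly with 1 coefficient for each of the 3 groups. The filter filterByExpr (minimum count 10, minimum total 15) left 16646 genes, TMM set the scaling (factors 0.926 to 1.06), and Benjamini-Hochberg adjustment ran over all of them. A gene was called at an adjusted p under 0.05. The average of both Trex1-/- groups against wild type used the mean of their coefficients, and each SE came from the F value and the log2 fold change. Levels are CPM with TMM factors. Totals of 16118813 to 21928965 counts per library set their precision, and intervals from 0 counts cover counting error only.

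One gene of the interval and 1 kidney marker are not reported here and were left out of every count over the interval or the markers, but not of the fits or of counts over all genes. Genes named were those called against wild type, the 3 nearest to Trex1 on each side, M7core members, the 3 most abundant per list, and those at the limits of the rule. Inside the limits were 1700102P08Rik (1.01 CPM), Cep70 (-9.81 Mb) and Vill (9.99 Mb), and just outside were Gm38077 (0.999 CPM), Pik3cb (-10.0 Mb) and Plcd1 (10.0 Mb). Genes named outside this rule were neighbours of called genes, genes called only in alternatives, Col6a6, Kif9, the neutrophil granule genes below 1 CPM, and the genes outside the interval. The interval, the lists, the Y-linked term and the alternatives were chosen with earlier results of these data known. Same-numbered libraries did not deviate together in every pair (correlations -0.294 to 0.242), and the main test did not pair them. Between PBS and SN-011 the same-numbered pairs had 0.198, 0.242 and 0.0981 and the other pairs -0.216 to 0.0914. Pairing of these groups cannot be decided from these values. Of the genes in the interval, 19 shared exonic bases with a gene on the same strand and 59 with one on the opposite strand. The steps were tested on simulated data. Alternatives were other scalings, filters and tests (DESeq2 1.42.0, limma 3.58.1), fewer libraries, a replicate block, a Y-linked term and other member limits. GEO labels name a HiSeq model that differs from the one in the methods.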

Additional observations from a re-analysis of the deposited data

How the results depend on the processing

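The alternatives changed how many of the 173 genes were called. For PBS against wild type (6 genes), the DESeq2 Wald test gave 11, edgeR's exact test 10, no filter beyond 1 read 11, a mean of at least 50 counts 3 and only the libraries of the comparison 13. The share of all genes called, 1.88% as reported, was 4.36%, 4.12%, 2.29%, 2.09% and 4.64% in these. For SN-011 against wild type (2 genes), the numbers were 10, 6, 7, 1 and 1 in the same order, the Y-linked term gave 9, the replicate block 4 and genes with at least 10 CPM 1. Of all genes, 4.84%, 3.59%, 1.96%, 1.68%, 0.264%, 3.94% and 1.39% were called in the refitted ones, against 1.28% as reported. For both Trex1-/- groups (7 genes) the Wald test gave 12, no filter beyond 1 read 11 and the Y-linked term 11, where 5.45%, 2.72% and 2.68% of all genes were called, against 2.43% as reported. Leaving out 1 library gave 2 to 13 for PBS (13 without SN-011 replicate 2, and 2 without PBS replicate 1, 2 or 3 or wild-type replicate 1 or 2). For SN-011 it gave 1 to 7 (7 without SN-011 replicate 2, 4 without SN-011 replicate 1 or wild-type replicate 3, and 1 when wild-type replicate 1 was omitted), for both groups 2 to 9 (2 when wild-type replicate 1 or 2 was omitted), and for SN-011 against PBS 0 to 6 (6 without SN-011 replicate 2). The share of all genes called moved as well, from 0.897% to 4.55% for PBS, 0.224% to 2.21% for SN-011, 0.800% to 3.44% for both groups and 0.0% to 3.05% for SN-011 against PBS. In a window of 2 Mb the median log2 fold change with PBS was -0.058. The causes of these differences were not tested, apart from the fewer genes or libraries that some alternatives hold by construction.

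The replicate number as a block gave 6 genes for PBS, 4 for SN-011, 8 for both groups and 0 for SN-011 against PBS, and of the named calls it ended those of 3000002C10Rik with PBS and Als2cl in the average. Reversed directions concerned only differences that were not called. For SN-011 against PBS, the Y-linked term gave 0.16 for Rad54l2 and -0.34 for Cish, and no filter gave -0.000120 for Cish. With 1 library left out, SN-011 against PBS ran from -0.38 to 0.13 for Rad54l2, -0.25 to 0.14 for Cish, -0.50 to 0.27 for 6430571L13Rik and -0.027 to 0.15 for Als2cl, and both groups against wild type ran from -0.058 to 0.14 for Slc26a6, -0.048 to 0.41 for Col7a1, -0.024 to 0.075 for Tma7 and -0.054 to 0.70 for Gm7628. In all, 152 of the summary values stayed the same and 30 moved, and 595 of the single-gene values stayed the same, 49 lost and 38 gained a call and 17 reversed. Depth was lowest for 3000002C10Rik and 6430571L13Rik among the called genes, with 10 to 86 and 13 to 108 counts per library.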

Other observations

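Of the 7 genes left out by name, 2 were called against wild type. Rpl29 (a ribosomal protein gene, -2.63 Mb) had means of 121 ± 8.70, 5.02 ± 0.0855 and 4.50 ± 1.54 CPM in wild type, PBS and SN-011 (SD, n = 3), with an averaged log2 fold change of -4.66 (SE 0.156, edgeR adjusted p 4.23e-07). Reads of ribosomal protein genes can be shared with processed copies, so its level is uncertain. Atrip, which starts at the Trex1 start, was at 15.3 ± 0.839, 45.1 ± 4.30 and 37.3 ± 0.244 CPM, with an averaged log2 fold change of 1.42 (SE 0.0871, adjusted p 4.57e-05).

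Directly beyond the upper end of the interval, 3 of 25 genes with at least 1 CPM were called from 10 to 12 Mb in the average of both Trex1-/- groups, where 2.43% of all genes were called, and all 3 fell. They were Plcd1 (a phospholipase C, log2 fold change -0.50, adjusted p 0.0494), Acaa1b (a peroxisomal thiolase, -0.66, adjusted p 0.00892) and Slc22a13 (a urate transporter, -0.51, adjusted p 0.0105). Means of Acaa1b in the 3 groups were 534 ± 80.8, 319 ± 11.5 and 359 ± 31.7 CPM in the same order (SD, n = 3). Farther away on chromosome 9, Zbtb16 (a zinc finger transcription factor, -60.4 Mb) had means of 4.14 ± 2.08, 36.3 ± 10.8 and 58.0 ± 21.9 CPM and rose, with an averaged log2 fold change of 3.46 (adjusted p 0.00112). The inflammatory caspase genes Casp1 and Casp4 rose by 1.84 and 1.57 (adjusted p 0.00362 and 0.00328), and Gclc, the catalytic subunit of glutathione synthesis, rose by 0.78 (adjusted p 0.0444). Snap91 and Gm16010 fell by 1.63 and 1.21 on the log2 scale (adjusted p 0.00793 and 0.0428). These genes were named after their values were seen.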
